A study of Mus musculus with 6 samples.

Results

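The transcripts described here encode the proteins that choose splice sites in the heart. They comprise the serine/arginine-rich (SR) proteins (Srsf), the heterogeneous nuclear ribonucleoproteins (Hnrnp) and a set of named factors, namely Rbm20, Rbm24, Rbfox1, Rbfox2, Mbnl1, Mbnl2, Celf1, Celf2, Tra2a, Tra2b, Sf3b1, U2af1, U2af2 and Snw1. Members were taken by gene symbol from the probe table of a mouse expression array, and every probe of each gene was kept. This gave 114 of 56605 probes, which report on 45 of 27307 gene symbols. The rule uses gene symbols and no measured value, but it was set with earlier results of these data known.

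Total RNA came from the myocardium of male C57BL/6J mice that lack the kinase CLK4 in cardiomyocytes (Clk4-cKO). The deletion was made by tamoxifen in Clk4 fl/fl mice carrying α-MHC-MerCreMer, a Cre recombinase that the α-myosin heavy chain promoter restricts to cardiomyocytes. The mice had received an adeno-associated virus (AAV9) by vein that carried either NEXN-S437E, a phosphorylation-mimicking form of the Z-disc protein nexilin, or NEXN-WT, the unmutated protein. Each virus was given to 3 mice, and each mouse gave 1 array. All 6 mice carried the Clk4 deletion and a NEXN virus, so neither a mouse with intact Clk4 nor one without virus enters any comparison. The viral NEXN was driven by a CMV promoter, which is not restricted to cardiomyocytes. The labels give no age, and the study's methods describe virus injection of young mice and tamoxifen treatment of male mice from an age slightly above that. The comparison asks how the myocardial transcript levels differ when the mimic replaces the wild-type protein.

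SR proteins bind exons through RNA recognition motifs and recruit the spliceosome through a tail of arginine and serine repeats. CDC-like kinases, of which CLK4 is one, and the SRPK kinases phosphorylate that tail and so set where SR proteins sit in the nucleus and how they act. hnRNPs coat nascent RNA and often oppose SR proteins at the same exons. RBM20, RBM24, RBFOX, MBNL and CELF proteins switch exons of sarcomere and ion-handling genes during heart development, and loss of RBM20 causes cardiomyopathy through titin mis-splicing. Many of these genes also regulate their own mRNA by splicing in stretches that send it to decay. A gene expression array reports transcript amount at its probes. It measures neither phosphorylation of these proteins nor the splicing of their targets.

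Probes are oligonucleotides of 60 bases, and a few of them distinguish spliced from unspliced RNA by where they lie. The 3 tested probes of Srsf5 are shown because they report on different parts of its transcripts. The first spans 650 bases of the genome (mm9 chr12:82047706-82048355, + strand), so it can match in full only spliced RNA. The second (chr12:82047730-82047789) starts 24 bases after the first one begins, and the base at which it starts is not the base that the first probe has next. With a single gap in the first probe, the second lies in the stretch that the first one skips. Capitals in the first probe mark the 36 bases that must then come from beyond the gap. The last probe (chr12:82050878-82050937) is unbroken.
Srsf5 A_52_P50090: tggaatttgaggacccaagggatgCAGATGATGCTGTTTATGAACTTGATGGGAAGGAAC
Srsf5 A_55_P2726980: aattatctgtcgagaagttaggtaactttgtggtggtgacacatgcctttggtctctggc
Srsf5 A_55_P2157872: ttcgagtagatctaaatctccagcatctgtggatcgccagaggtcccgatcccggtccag
A probe of Rbm20 is shown because it also spans a gap, of which the whole run covers 6259 bases (chr19:53909212-53915470, + strand), and so reports spliced RNA of the titin splicing factor.
Rbm20 A_52_P642626: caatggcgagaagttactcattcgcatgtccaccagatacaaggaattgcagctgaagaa

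Signals were scaled to each array's 75th percentile over the 21110 probes above background on all 6 arrays, and a log2 signal below is relative to that percentile. Between 42.0% and 47.8% of spots stood well above background on an array, and no spot was saturated. The 6 arrays shared 1 slide and 1 scan. NEXN-S437E replicates 2 and 3 lay in slide row 2, and the other 4 arrays in row 1. NEXN-WT replicate 1 stood apart from the others. Its mean absolute log2 difference from the other 5 arrays was 0.33 to 0.45 over the tested members, against 0.20 to 0.30 among those 5 arrays.

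No splicing factor probe passed an adjusted p of 0.05 (limma with Benjamini-Hochberg adjustment over all 22998 tested probes), a level that 0.148% of all tested probes passed. Of the 114 member probes, 94 from 44 genes were bright enough to be tested. At an unadjusted p under 0.05, 6 of the 94 were higher with NEXN-S437E, where 7.84% of all tested probes were called higher, and 0 were lower, where 8.57% were called lower. The 6 were both probes of Rbfox1 and 1 probe each of Srsf2, Hnrnpdl, Hnrnpul1 and Hnrnpl. The Hnrnpl probe was above background on 2 of 3 NEXN-WT arrays and entered the test through the NEXN-S437E arrays alone, a filter that favours the higher direction. With probes above background on all 6 arrays, 6 of 90 members were higher, against 8.41% of all. In either direction the members' share was 6.38%, against 16.4% of all tested probes. The methods' t-test put 8 members higher and 1 lower at an unadjusted p under 0.05 and none past the adjusted p, where 7.06% and 6.50% of all tested probes were called. None reached a 2-fold difference with an unadjusted p under 0.05, as 2.57% of all tested probes did. The count of 6 depended on the processing and on single arrays. It was 10 under quantile normalization, where 7.67% of all tested probes were higher, 11 with normexp background correction, where 13.4% were, and 1 with the slide row as a block, where 3.50% were. With that block, in which NEXN-S437E replicate 1 alone is compared with the NEXN-WT arrays, 5 members were lower, against 6.58% of all tested probes. They were probes of Srsf6, Sf3b1, Hnrnpab, Hnrnpc and Celf1. It was 3 without NEXN-WT replicate 2 (7.29% of all) and 3 without NEXN-S437E replicate 3 (4.13%). Without NEXN-WT replicate 3 it was 4, with 4 lower, against 9.08% and 11.3% of all tested probes.

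Differences over the members were small. The median log2 difference over the 94 probes was -0.00, against 0.01 over all tested probes, and 50% of the member differences lay between -0.11 and 0.08, where those of all tested probes lay between -0.21 and 0.21. A difference under 0.5 in size was found for 87 members (92.6%) and for 85.5% of all tested probes. The 95% interval of the difference lay wholly within 2-fold for 82 of the 94, and within 2-fold for 82.5% of all tested probes. The groups did not overlap at 13 member probes, of which 12 were higher and 1 lower with NEXN-S437E. Over all tested probes 26.8% did not overlap, 14.4% higher and 12.4% lower. With 3 mice a group, the exact two-sided permutation test of a single probe cannot go below 0.10, which is its value at each of these 13 probes.

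**Figure D1:**
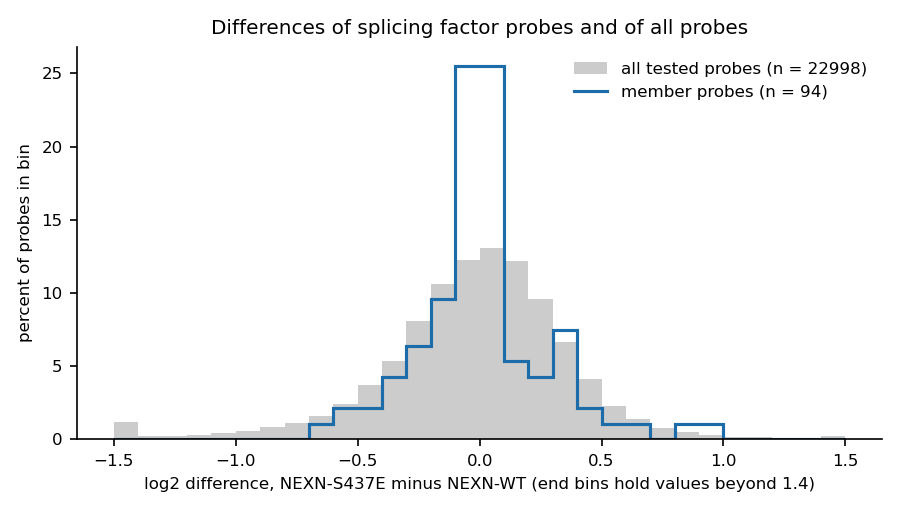
Share of probes (y axis, percent) in each bin of the log2 difference NEXN-S437E minus NEXN-WT (x axis, bins of 0.1) for the 94 tested splicing factor probes (blue line) and all 22998 tested probes (grey). The bins from -0.1 to 0.1 hold 25.5% of the members each, against 12.3% and 13.1% of all probes.

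Among the 11 SR protein genes, 10 had a tested probe, and the 20 tested probes ranged from -0.45 to 0.36 with a median of 0.00. None passed the adjusted p. Srsf2 and Srsf5 lay on the higher side without overlap and Srsf9 on the lower. Srsf2, which recognises exonic enhancers and keeps a steady level by splicing its own 3′ end, gave log2 signals of -0.33, 0.07 and -0.05 with NEXN-WT and 0.32, 0.17 and 0.26 with NEXN-S437E. The groups did not overlap. The difference was 0.35 ± 0.15 (SE, unadjusted p = 0.0480, adjusted p = 0.300 by limma). Without NEXN-WT replicate 1, the lowest array, it was 0.24 with an unadjusted p of 0.0930 by limma.

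Srsf5, an SR protein abundant in heart, gave signals of -1.23, -1.25 and -1.36 with NEXN-WT at its spliced probe and -0.73, -1.14 and -0.93 with NEXN-S437E. At its other unbroken probe, the last of those printed, they were -0.87, -0.89 and -0.88 against -0.49, -0.75 and -0.51. Every NEXN-S437E array was above every NEXN-WT array at both probes. The differences were 0.35 ± 0.15 and 0.29 ± 0.13 (SE), with adjusted p of 0.305 and 0.323 by limma.

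Both probes of Srsf9, an SR protein with a short tail, were lower with NEXN-S437E. At the first the NEXN-WT signals were 0.29, 0.14 and 0.15 and the NEXN-S437E signals -0.00, -0.13 and -0.06, the only member probe at which the groups were apart in the lower direction. At the second they were 0.03, -0.49 and -0.37 against -0.88, -0.42 and -0.58, and the groups overlapped. The differences were -0.26 ± 0.13 and -0.35 ± 0.19 (SE), with adjusted p of 0.349 and 0.391 by limma, and the second was -0.20 without NEXN-WT replicate 1.

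Srsf1, the founding SR protein and a regulator of calcium-handling exons in the heart, differed by -0.00 at its tested probe, with a 95% interval from -0.29 to 0.28. Srsf4 differed by 0.01 (-0.28 to 0.30). Its relative Srsf6 had 2 probes that parted in 1 mouse. At the first the signals were 0.75, 0.45 and 0.32 with NEXN-WT and -0.62, 0.21 and 0.57 with NEXN-S437E. NEXN-S437E replicate 1 was low on it, and the second probe was level on all 6 arrays, from -1.24 to -1.09. The differences were -0.45 (-1.15 to 0.25) and 0.03 (-0.25 to 0.31). The first was -0.12 without NEXN-S437E replicate 1 and -1.13 (unadjusted p = 0.00433 and adjusted p = 0.280 by limma) with the slide row as a block.

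Srsf3, a small SR protein also active in mRNA export, had differences of -0.06 and 0.04 at its 2 probes. Srsf7, its closest relative, differed by 0.18, with an interval from -0.28 to 0.65. Srsf10, a splicing repressor when dephosphorylated, differed by 0.36 (-0.27 to 1.00) and 0.10 (-0.22 to 0.42). Srsf11 had 5 tested probes, whose differences ran from -0.31 to 0.08, none with an unadjusted p under 0.05, and the probe with the smallest p was -0.22 ± 0.15 (SE). None of these intervals left out 0.

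The SR-like activators Tra2a and Tra2b, which bind purine-rich exonic enhancers, had 3 tested probes between -0.10 and 0.05. At the probe of highest mean, Tra2a differed by -0.10 ± 0.18 and Tra2b by 0.05 ± 0.15 (SE). Neither sign held under all alternatives.

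All 20 hnRNP genes had a tested probe, and their 43 tested probes had a median difference of 0.01 and ranged from -0.60 to 0.63. Of these, 40 had a 95% interval within 2-fold. The 3 probes with an unadjusted p under 0.05 belonged to Hnrnpdl, Hnrnpul1 and Hnrnpl, the latter pair being described probe by probe after the other genes. Hnrnpdl, a paralog of Hnrnpd that binds AU-rich RNA and whose human counterpart is mutated in a limb-girdle muscular dystrophy, gave signals of 1.10, 1.13 and 1.29 with NEXN-WT and 1.49, 1.54 and 1.49 with NEXN-S437E. The groups did not overlap, and the difference was 0.33 ± 0.13 (SE, unadjusted p = 0.0324, adjusted p = 0.265 by limma). It lay between 0.29 and 0.39 whichever array was left out.

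Hnrnpd itself, the AU-rich element binding protein AUF1, was also higher without overlap at both of its probes. At the probe that spans a gap of the genome the signals were -1.89, -1.99 and -2.00 with NEXN-WT and -1.55, -1.76 and -1.75 with NEXN-S437E. At the other they were 0.02, 0.06 and 0.13 against 0.19, 0.26 and 0.15. The differences were 0.27 ± 0.13 and 0.13 ± 0.12 (SE), and neither passed the test (adjusted p = 0.345 and 0.598 by limma).

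Hnrnpa2b1, which packages pre-mRNA and sorts RNAs for transport, gave -0.72, -0.92 and -0.87 with NEXN-WT and -0.78, -0.30 and -0.36 with NEXN-S437E at its first probe. The groups overlapped through NEXN-S437E replicate 1. The difference was 0.36 ± 0.17 (SE, adjusted p = 0.335 by limma), and 0.28 ± 0.19 at its second probe, which spans a gap.

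On the lower side, the probes of smallest p were 1 of the 3 of Hnrnpc, which guards against the use of cryptic exons, at -0.31 ± 0.20, and 1 of the 2 of Hnrnpul2 at -0.32 ± 0.23 (SE). The Hnrnpc value lay between -0.49 and -0.14 with an array left out and was -0.65 with the slide row as a block. The Hnrnpul2 value turned to 0.16 with normexp background correction and to 0.19 with the slide row as a block. The other tested probes of these genes were at -0.04 and -0.06 for Hnrnpc and -0.20 for Hnrnpul2. With all arrays and no block, none of the Hnrnpc or Hnrnpul2 probes had an unadjusted p under 0.05.

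For other well-studied hnRNPs the interval of the difference held 0. At the probe of highest mean, the difference and its 95% interval were 0.11 (-0.24 to 0.47) for Hnrnpa1, the main antagonist of Srsf1. They were -0.08 (-0.52 to 0.36) for Hnrnpk, a poly(C)-binding protein, and -0.02 (-0.34 to 0.30) for Hnrnpm. For Hnrnph1 and Hnrnpf, which bind G-rich runs, they were 0.03 (-0.27 to 0.34) and -0.05 (-0.41 to 0.31). For Hnrnpu, a nuclear scaffold protein, they were -0.19 (-0.58 to 0.20). Hnrnpab read 2.11, 2.13 and 2.22 with NEXN-WT and 1.44, 2.24 and 2.28 with NEXN-S437E, so that NEXN-S437E replicate 1 was low and the other 2 were above all NEXN-WT arrays.

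**Figure D2:**
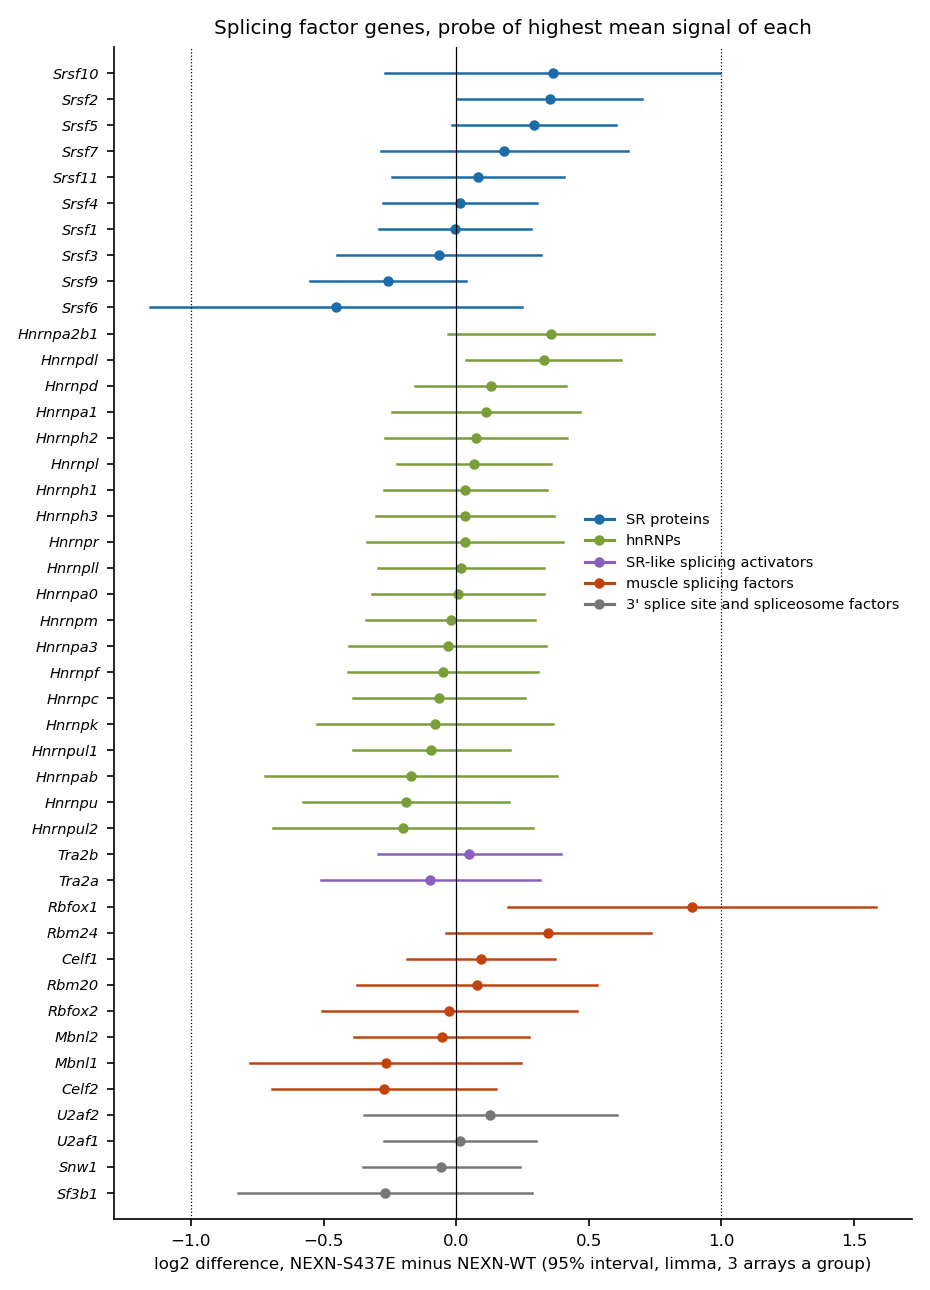
Log2 difference NEXN-S437E minus NEXN-WT (x axis) of the probe of highest mean signal for each of the 44 splicing factor genes with a tested probe (y axis), with its 95% interval from limma, 3 arrays a group, coloured by role. Dotted lines mark 2-fold. The points lie between -0.45 and 0.89, and all but 2 intervals, those of Rbfox1 and Srsf6, lie within 2-fold.

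The 8 muscle splicing factor genes had 20 tested probes, 10 above and 10 below 0, with a median difference of -0.01. Among them, Rbfox1 had the highest differences of all members. RBFOX1 is the muscle- and neuron-enriched member of its family and promotes or represses exons depending on which side it binds. At one probe (mm9 chr16:7411544-7411603) the log2 signals were -2.92, -1.82 and -2.21 with NEXN-WT and -1.47, -1.29 and -1.41 with NEXN-S437E. At the other (chr16:7409960-7410019) they were -0.91, 0.23 and 0.16 against 0.77, 0.66 and 0.71. Every NEXN-S437E array was above every NEXN-WT array on both, the NEXN-S437E arrays lay close together, and NEXN-WT replicate 1 was the lowest array on both.

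The differences were 0.93 ± 0.27 and 0.89 ± 0.30 (SE), that is 1.91-fold (95% interval 1.24 to 2.94) and 1.85-fold (1.14 to 2.99), with unadjusted p of 0.00944 and 0.0189 and adjusted p of 0.191 and 0.228 by limma. Without NEXN-WT replicate 1 they were 0.63 ± 0.16 and 0.52 ± 0.11 (SE), with adjusted p of 0.197 and 0.162 by limma. The 2 probes are measurements of the same 6 RNAs and do not add replicates. With the slide row as a block, which compares NEXN-S437E replicate 1 alone with the NEXN-WT arrays, they were 0.85 and 0.94, and the unadjusted p of 0.0836 and 0.0846 by limma no longer passed. Its paralog Rbfox2, which is widely expressed, differed by -0.03 (95% interval -0.51 to 0.46) and 0.03 (-0.29 to 0.36).

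Rbm24, a muscle RNA-binding protein needed for sarcomere assembly, gave 1.60, 1.98 and 2.03 with NEXN-WT and 2.37, 2.11 and 2.18 with NEXN-S437E. The groups did not overlap, with NEXN-WT replicate 1 again lowest. The difference was 0.35 ± 0.17 (SE, adjusted p = 0.340 by limma), and 0.21 without that array. Rbm20 gave -3.52, -2.67 and -2.71 against -2.12, -2.61 and -2.94 at the gap-spanning probe printed above, and -1.36, -0.88 and -0.93 against -1.17, -0.70 and -1.07 at the other. Both overlapped. The differences were 0.41 (-0.28 to 1.10) and 0.08 (-0.37 to 0.53), and the first was 0.13 without NEXN-WT replicate 1.

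MBNL and CELF proteins oppose each other on many exons of the maturing heart. At the probe of highest mean, Mbnl1 gave 1.09, 0.53 and 0.33 with NEXN-WT and 0.29, 0.26 and 0.60 with NEXN-S437E, and Mbnl2 differed by -0.06 ± 0.14 (SE). The Mbnl1 difference was -0.27 ± 0.22 (SE), and -0.05 without NEXN-WT replicate 1, which was its highest array. Celf1 gave -0.54, -0.43 and -0.50 against -0.42, -0.39 and -0.39, groups that did not overlap yet differed by 0.09 ± 0.12 (SE). Celf2 differed by -0.27 ± 0.18 (SE), and by -0.16 without NEXN-WT replicate 1, at its brightest probe, where NEXN-WT replicates 1 and 2 were at 1.07 and 0.98 and the other 4 arrays between 0.49 and 0.67. A second Celf1 probe, dimmer, differed by -0.40 ± 0.51 (SE), with NEXN-S437E replicate 1 at -4.53 and the other 5 arrays between -3.22 and -2.56. It was at 0.25 without that array and at -1.70 (unadjusted p = 0.000992 and adjusted p = 0.174 by limma) with the slide row as a block. A dim Mbnl2 probe at 0.29 ± 0.36 (SE) was at 0.69 (unadjusted p = 0.0260 by limma) without NEXN-WT replicate 1. With all arrays and no block, no MBNL or CELF probe had an unadjusted p under 0.05.

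The 3′ splice site and spliceosome factors had 8 tested probes between -0.56 and 0.13. With all arrays and no block, none had an unadjusted p under 0.05. U2af1, the small U2AF subunit that reads the 3′ splice site, differed by 0.01 (95% interval -0.27 to 0.30) at its brightest probe, and U2af2, the subunit that binds the pyrimidine tract, by 0.13 (-0.35 to 0.60). Snw1, a factor of the activated spliceosome, differed by -0.06 and 0.01. Sf3b1, which holds the branch point in the U2 particle, was on the lower side at its 3 tested probes, at -0.56 ± 0.29, -0.27 ± 0.24 and -0.17 ± 0.17 (SE). Without NEXN-WT replicate 1, its highest NEXN-WT array, they were at -0.40, -0.15 and -0.075, and without NEXN-S437E replicate 1 the second was at -0.043. With the slide row as a block the same probes were at -0.89, -0.72 and 0.09. The groups overlapped at each, and at the first the signals were -3.63, -3.75 and -4.45 with NEXN-WT and -4.83, -4.02 and -4.66 with NEXN-S437E.

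**Figure D3:**
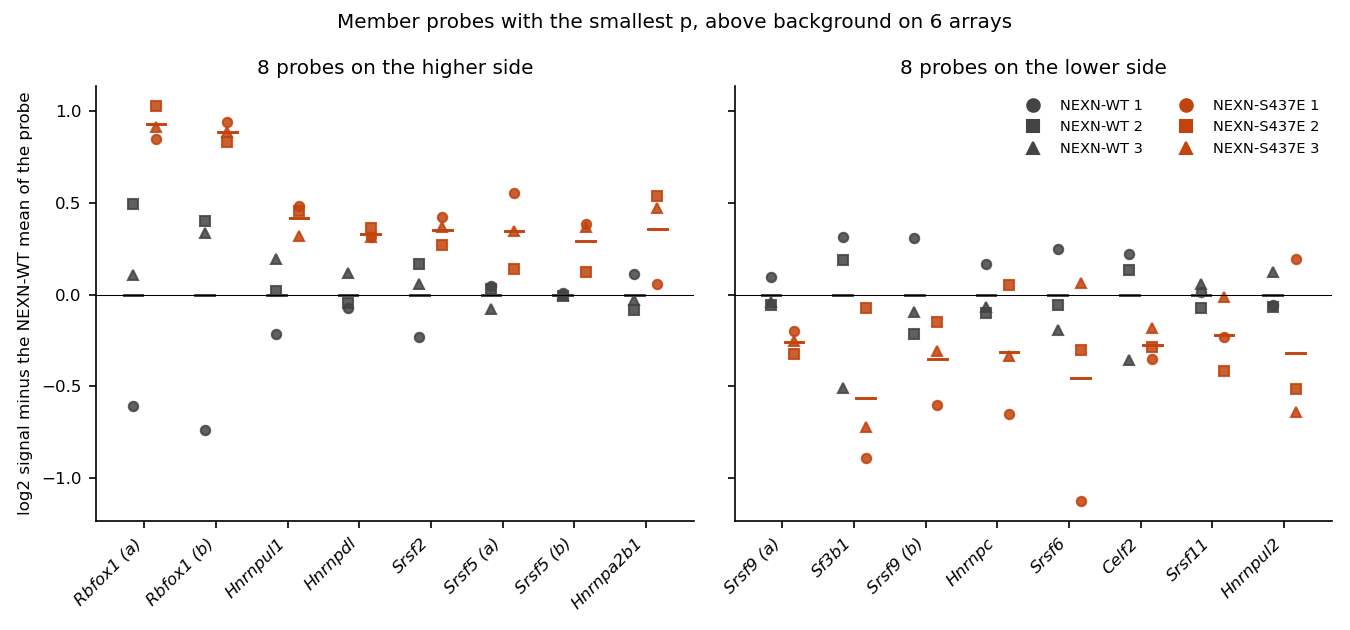
Log2 signal of each array minus the NEXN-WT mean of the probe (y axis) at the 8 member probes on each side with the smallest p among those above background on all 6 arrays, with the group means as short lines and replicates by symbol. Letters a and b separate probes of 1 gene. Both Rbfox1 probes stand near 0.9 with NEXN-S437E, with NEXN-WT replicate 1 lowest, and on the lower side only the first Srsf9 probe has no overlap.

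Because most genes carried several probes, each probe was also compared with the mean of the other tested probes of its gene within each array, which cancels the scaling of the array. Of 33 member genes with at least 2 tested probes, 2 had a probe that departed from the others at an unadjusted p under 0.05, namely Hnrnpl and Hnrnpul1, so that 2 of the 60 member probes compared in this way were called, against 6.95% of the 8185 of all genes. By gene this was 2 of 33, against 9.50% of 5073 genes. The Hnrnpl call rests on probes that entered the test through the NEXN-S437E arrays alone and is not taken further. No member comparison passed the adjusted p, and 0.0367% of those of all genes did.

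Hnrnpl, which binds CA repeats and restrains its own level through a decay-targeted exon, had 4 tested probes in 2 pairs. The 2 probes with RefSeq mRNA accessions differed by -0.06 ± 0.14 and 0.07 ± 0.12 (SE). The 2 probes with other accessions were near background, with 2 of 3 and 1 of 3 NEXN-WT arrays above it and 3 of 3 NEXN-S437E arrays. They gave -5.58, -5.80 and -6.34 against -5.37, -5.30 and -5.49, and -5.50, -6.47 and -6.41 against -5.43, -5.36 and -5.71.

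At the first of these the groups did not overlap. The differences were 0.52 ± 0.21 and 0.63 ± 0.27 (SE). They are given as a description, since both probes passed the filter through the group in which they were higher.

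Hnrnpul1, a DNA damage and splicing cofactor related to Hnrnpu, had 2 probes. At one the signals were -3.59, -3.36 and -3.19 with NEXN-WT and -2.89, -2.93 and -3.06 with NEXN-S437E, without overlap. At the other they were -1.20, -1.25 and -1.41 against -1.35, -1.42 and -1.37. The differences were 0.42 ± 0.15 and -0.09 ± 0.13 (SE), and the gap between them was 0.51 ± 0.18 (SE, adjusted p = 0.645 by limma).

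At the Srsf5 probes printed above, the probe within the skipped stretch gave -1.20, -1.40 and -1.77 with NEXN-WT and -1.22, -1.66 and -1.55 with NEXN-S437E, a difference of -0.02 ± 0.19 (SE) whose sign changed with the scaling. The 2 other probes, of which one requires spliced RNA, were higher without overlap. The skipped-stretch probe against the mean of the others gave -0.34 ± 0.17 (SE, unadjusted p = 0.0769, adjusted p = 0.763 by limma), so the departure did not pass the test.

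**Figure D4:**
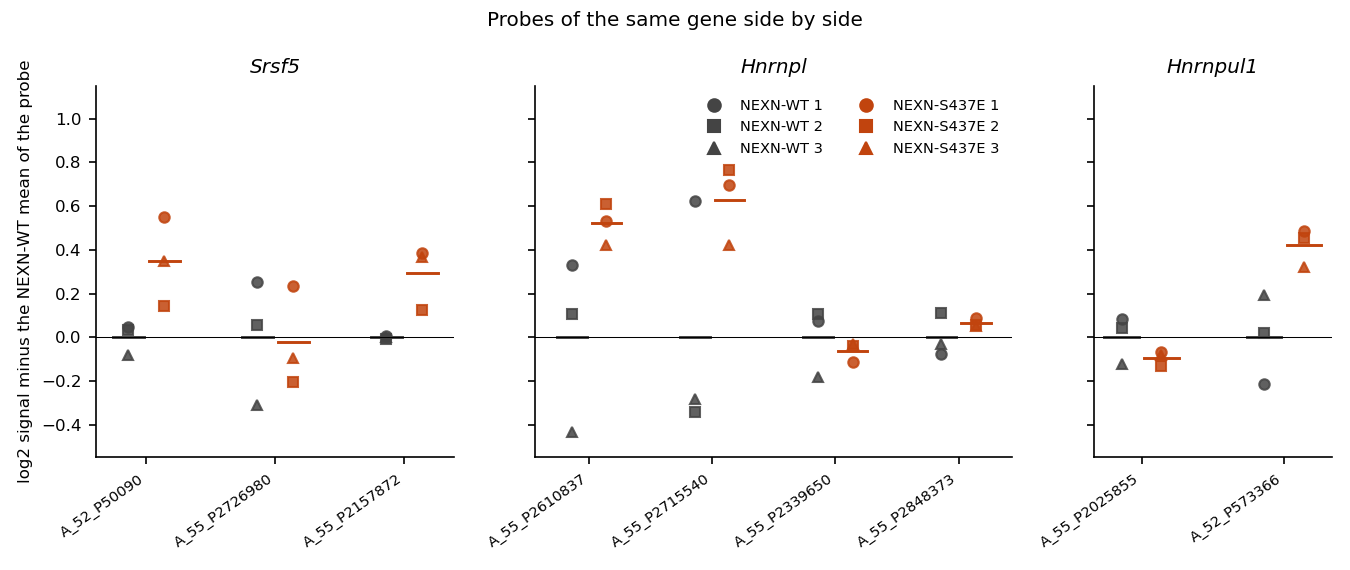
Log2 signal of each array minus the NEXN-WT mean of the probe (y axis) for all tested probes of Srsf5, Hnrnpl and Hnrnpul1 (x axis, in order of genome position), with group means as short lines. In each gene some probes are higher with NEXN-S437E, by up to 0.63, while another lies between -0.09 and 0.07. The higher Hnrnpl probes, that of 0.63 among them, are near background and passed the filter through the NEXN-S437E arrays alone. They are shown as a description.

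Of all tested member probes, 12 from 10 genes spanned over 60 bases of the genome and so report joined exons. Their differences ran from -0.56 for Sf3b1 to 0.41 for Rbm20 with a median of 0.06, and 0 of them had an unadjusted p under 0.05, against 16.4% of all tested probes. Those of Srsf5 and Hnrnpd were the ones without overlap, where 26.8% of all tested probes did not overlap.

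The members also varied within the NEXN-WT group. At 13 of the 94 tested probes (13.8%) the 3 NEXN-WT arrays ranged over more than 1 on the log2 scale, against 4 (4.26%) for NEXN-S437E, where the shares over all tested probes with a gene symbol were 10.1% and 4.03%. NEXN-WT replicate 1 was the highest of its group at 11 of the 13, and the lowest at both Rbfox1 probes. Of the 13, 8 had an accession other than a RefSeq mRNA, out of 15 tested member probes of that kind (53.3%), where the share over all probes of that kind was 17.0%. The member probes with a RefSeq mRNA accession had a share of 6.33%, against 8.70% over all.

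Examples were probes of Tra2b at -3.73, -4.39 and -5.43, of Mbnl2 at -3.45, -4.25 and -5.04 and of Celf2 at -3.17, -4.30 and -5.34. At the brightest probe of the same genes the NEXN-WT arrays ranged over 0.41, 0.25 and 0.58. One of the 13, a Rbfox1 probe, was the brightest of its gene. What moves these probes in the NEXN-WT mice was not tested.

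**Figure D5:**
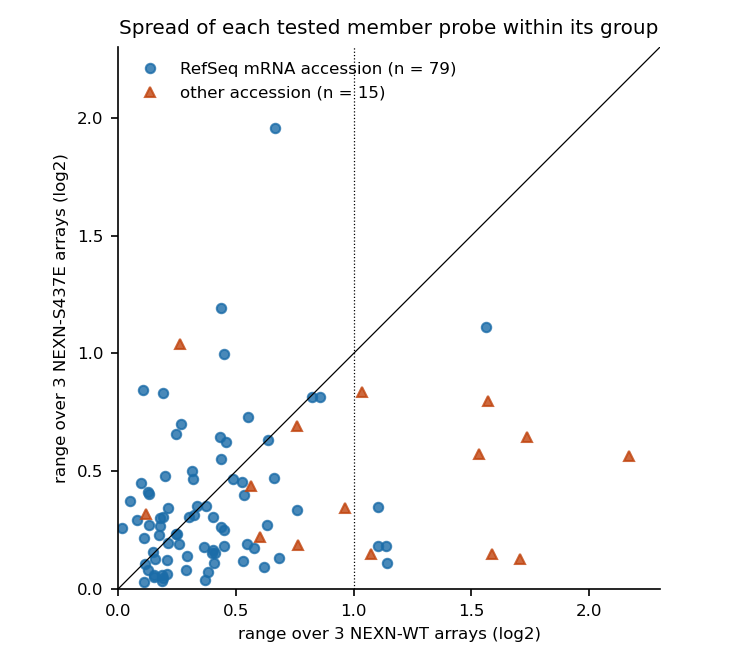
Range over the 3 NEXN-S437E arrays (y axis, log2) against the range over the 3 NEXN-WT arrays (x axis, log2) for each of the 94 tested member probes, by kind of accession, with the line of equality and a dotted line at 1. Beyond 1 on the x axis lie 13 probes, 8 of them with an accession other than a RefSeq mRNA.

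The 20 member probes that were too dim to test came from 12 genes. Both probes of the SR protein Srsf12 were not well above background on any array, so the gene had no tested probe. The other untested probes belonged to genes with a brighter one, among them 4 of the 10 probes of Celf2 and 3 of the 7 of Hnrnpr. No member probe was above background on all arrays of one group and on none of the other.

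Among the kinases that phosphorylate SR proteins, 18 probes of 9 genes were tested and 0 had an unadjusted p under 0.05 in limma, against 16.4% of all tested probes. Clk4, the deleted kinase, gave -1.00, -1.47 and -1.31 with NEXN-WT and -1.17, -1.46 and -1.00 with NEXN-S437E at its tested probe. Both groups carry the deletion and whether the probe lies in the deleted part was not tested, so this does not check it. Clk1 was on the lower side at both probes, at -0.33 ± 0.20 and -0.42 ± 0.20 (SE), and at -0.19 and -0.26 without NEXN-WT replicate 1. Clk2 and Clk3 differed by -0.07 and -0.10 at the brightest probe. Of the SRPK kinases, Srpk1 differed by 0.09 ± 0.27, Srpk2 by -0.00 ± 0.23 and the muscle-enriched Srpk3 by 0.40 ± 0.26 (SE). Srpk3 was 0.08 without NEXN-WT replicate 1, which was at -1.03 where the other 5 arrays lay between -0.10 and 0.10. Prpf4b, a kinase of the spliceosome, was at -0.21 ± 0.26 (SE), and at 0.06 without NEXN-WT replicate 1. Its other, dimmer probe was at 0.07 ± 0.26 (SE). A further Srpk2 probe was at 0.33 ± 0.26 (SE), which ranged from 0.17 (without NEXN-WT replicate 3) to 0.60 (without NEXN-WT replicate 1) with an array left out.

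The wider splicing machinery was counted in the same way. Of 80 tested probes of 45 core spliceosome genes, 2 were higher and 0 lower at an unadjusted p under 0.05, with a median of 0.06. Over all tested probes 7.84% were higher and 8.57% lower, and the same shares stand beside the lists that follow. The 0 lower became 5 without NEXN-WT replicate 3, where 11.3% of all tested probes were lower, and 5 with the slide row as a block, where 6.58% were. The 2 were Sf3b3, a partner of Sf3b1, at 0.44 ± 0.16, and Snrpa1, a U2 particle protein, at 0.48 ± 0.18 (SE), the latter at 0.30 without NEXN-WT replicate 2. The called Sf3b3 probe was dim, from -5.03 to -4.27, and the other Sf3b3 probes were on the lower side, at -0.10 (the brightest) and -0.14. The brighter Snrpa1 probe was at 0.35 ± 0.16 (SE). The lower probes of smallest p were Luc7l2 and Luc7l3, U1-associated factors, at -0.51 ± 0.28 and -0.33 ± 0.22 (SE), the latter at 0.096 with normexp background correction. Without NEXN-WT replicate 1 they were -0.20 and -0.17. The brightest of the Luc7l2 probes was higher without overlap, at 0.32 ± 0.16 (SE, adjusted p = 0.357 by limma), and at 0.18 without that array. Of 23 tested probes of 15 exon junction and nonsense-mediated decay genes, 0 were higher and 1 lower, a probe of Smg9 at -0.34 ± 0.14 (SE). The brighter Smg9 probe was at -0.04 ± 0.14 (SE). In that list Upf2 was at -0.31 (0.084 with normexp, -0.19 without NEXN-WT replicate 1), Magohb at 0.21 and Eif4a3 at 0.11.

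Of 100 tested probes of 46 other splicing regulators, 5 were higher and 2 lower at an unadjusted p under 0.05, with a median of -0.03, and none passed the adjusted p. The 2 lower became 10 without NEXN-WT replicate 3, where 11.3% of all tested probes were lower. With normexp 11 were higher and 1 lower, against 13.4% and 5.05% of all tested probes. The slide row as a block compares NEXN-S437E replicate 1 alone with the NEXN-WT arrays, so its counts are not given for this list. Cirbp, the cold-inducible RNA-binding protein, gave 1.11, 1.25 and 1.60 with NEXN-WT and 2.00, 1.90 and 2.04 with NEXN-S437E, without overlap. Its difference was 0.66 ± 0.16 (SE, adjusted p = 0.158 by limma). Nova1, known as a neuronal splicing regulator, was at 0.67 ± 0.18 (SE) without overlap. The lower ones were Rbm47 at -0.45 ± 0.17 and Taf15 at -0.36 ± 0.14 (SE), the latter at 0.080 with normexp.

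Myocardium holds several cell types, and marker levels of some of them differed between the groups. In bulk tissue, fewer cells of a type and less RNA per cell cannot be told apart. All 15 tested probes of 10 cardiomyocyte markers were on the higher side, 6 of them at an unadjusted p under 0.05, with a median of 0.35, and their summed log2 level was 8.83 to 9.11 with NEXN-WT and 9.30 to 9.36 with NEXN-S437E. Without NEXN-WT replicate 1, 13 of the 15 were on the higher side, with a median of 0.27. Of 17 tested probes of 10 fibroblast markers, 13 were lower at an unadjusted p under 0.05, with a median of -1.20, and their summed level was 7.35 to 7.86 against 7.05 to 7.13. Of 11 tested probes of 8 T cell markers, 8 were lower and 1 higher at that level, 4 passed the adjusted p of limma and the median was -1.75, with summed levels of 0.41 to 0.93 against 0.35 to 0.76. The Cd247 probe, which differed by 0.28, had the highest level of these probes. The sum thus follows it more than the dimmer Cd3d, Cd3g, Lck and Cd2 probes, whose differences ran from -4.10 for Cd3d to -1.68 for Cd2. With NEXN-S437E the Cd3d probe at -4.10 read -7.42 to -8.03 and the Cd3g probe -7.70 to -8.12. A Srsf1 probe at -7.54 to -8.09 was above background on no array. At such levels a probe enters the test through the NEXN-WT arrays, where it was higher. The Cd3d and Cd3g differences and their calls are therefore given as a description, and the sizes as lower bounds. Macrophage and endothelial lists had medians of -0.03 and -0.04, with 1 of 14 and 0 of 9 probes lower at an unadjusted p under 0.05. The differences of Srpk3 and of the muscle splicing factors, 10 of whose 20 tested probes were above 0 and 10 below, stand beside this shift of the cardiomyocyte markers. Its part in them was not tested.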

How the data were processed

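Gene symbols, member lists and tests were chosen with earlier results of these data known. RNA was labelled with Cy3 and hybridised to 1-colour Agilent arrays, and the authors extracted the spots with Agilent Feature Extraction 10.7.1.1. The deposited array files hold intensity per spot, background-subtracted by the extraction software, together with mean and background intensity and flags. The deposited table holds log2 values that the authors normalized, and since its 6 sorted columns were identical, it was quantile normalized. Probe positions are those of the table (mm9). No further processing step is given in the sources used here.

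Processed signals of non-control spots without outlier flags were averaged per probe, put on a log2 scale and scaled to the 75th percentile over probes above background on all 6 arrays. A probe was tested when all 3 arrays of either group flagged it well above background, with limma 3.58.1 in R 4.3.3 (lmFit, eBayes, Benjamini-Hochberg over all tested probes). A second limma fit compared each probe with the mean of the other tested probes of its gene. The methods' t-test, at 2-fold and a p of 0.05, was an alternative. Both fits were tested on simulated data. With the first, 42 of 100 probes given a log2 change of 1 passed the adjusted p, with 5 false calls. Of 100 given a change of 2, 87 passed, again with 5 false calls. The text names the 8 probes on each side of smallest p above background on 6 arrays, the brightest probe of each factor outside the Srsf and Hnrnp families and of the kinases, the 3 genes with the smallest p between probes, and the 2 genes on each side of smallest p in each list. Array number limits the precision, at 3 a group. One marker list is not reported here.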

Additional observations from a re-analysis of the deposited data

How the results depend on the processing

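No member probe passed the adjusted p under any alternative. At an unadjusted p under 0.05, the 6 higher member probes became 10 under quantile normalization and on the deposited values, and 11 with the percentile over all probes, with normexp background correction and with array weights, where 7.67%, 7.65%, 10.3%, 13.4% and 10.6% of all tested probes were higher. They became 3 without a filter on dim probes, 3 with 1 probe per gene and 1 with the slide row as a block, where 8.29%, 7.80% and 3.50% were. The 0 lower probes became 5 with that block and 1 each with the methods' t-test, an intensity trend and array weights, where 6.58%, 6.50%, 8.76% and 10.8% of all tested probes were lower. Leaving out each array in turn gave 3 to 7 higher (3 without NEXN-WT replicate 2 or NEXN-S437E replicate 3) and 0 to 4 lower (4 without NEXN-WT replicate 3). The 0 probes at 2-fold became 1 with the percentile over all probes, and 0 to 3 with an array left out. The share of all tested probes at 2-fold is not given for these settings, so nothing is read from these 2-fold counts. Higher calls were 47.8% of all calls over the array, 60.4% with the percentile over all probes, 72.6% with normexp, 69.8% without the filter and 34.7% with the row block. The members' median minus that of all tested probes, -0.014, was -0.076 with normexp and -0.19 without the filter, and -0.037 to 0.046 with an array left out. Normexp put the median difference of all tested probes at 0.12, against 0.01.

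The 2 genes with a probe apart from the others (9.50% of all genes) became 8 with normexp (18.1%), 6 with the row block (18.5%), 5 with array weights (20.7%), and 1 without the filter (14.1%), with probes above background on all 6 arrays (8.28%), with diffSplice (6.23%) and with the replicate block (7.25%). They ranged from 0 (without NEXN-WT replicate 2, 8.26% of all genes) to 7 (without NEXN-WT replicate 3, 12.5%). With the replicate block 4 member probes, in place of 6, were higher at an unadjusted p under 0.05 and 0 were lower, against 6.00% and 7.65% of all tested probes. The labels do not say that same-numbered mice are paired, and the deviations of same-numbered arrays from their group means correlated at -0.15, -0.03 and -0.18, so the replicate block was not taken as the main fit.

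Of the log2 differences of named probes, 938 of 1005 values kept their sign, 67 changed it and 0 passed the adjusted p, while 80 lost and 49 gained an unadjusted p under 0.05. The cause was not tested. Under quantile normalization and on the deposited values the sign changed to -0.025 for Tra2b, 0.011 and 0.010 for Rbfox2, -0.060 for U2af1, 0.016 for Hnrnpl, 0.019 for Srsf5 and 0.016 for Srpk2. With the percentile over all probes it changed to 0.053 for Rbfox2, 0.023 for Mbnl2, 0.022 for Snw1, 0.015 for Hnrnpl, 0.057 for Srsf5, 0.011 for Clk2 and 0.074 for Srpk2. With normexp it changed to 0.16 for Hnrnpul2, 0.047 for Rbfox2, 0.020 for Mbnl2, 0.13 for Hnrnpl, 0.064 for Srsf5, 0.14 for Srpk2, 0.096 for Luc7l3, 0.080 for Taf15 and 0.084 for Upf2. With the row block it changed to 0.19 for Hnrnpul2, -0.11 for Rbm20, 0.030 for Mbnl2, 0.23 for Srsf5, 0.18 for Clk2 and 0.51 for Srpk2. With array weights it changed to 0.071 for Tra2a, -0.0016 for Rbm20, 0.10 for Rbfox2, -0.0085 for U2af1, -0.039 for U2af2, -0.18 for Srpk1 and 0.032 for Prpf4b. With an array left out, the differences that changed sign ran from -0.20 to 0.069 for Tra2a, -0.049 to 0.15 for Tra2b, -0.075 to 0.17 for Rbm20, -0.17 to 0.15 for Rbfox2, -0.13 to 0.019 for Mbnl2, -0.032 to 0.045 for U2af1, -0.038 to 0.27 for U2af2, -0.18 to 0.11 for Srsf5, -0.19 to 0.012 for Clk2, -0.19 to 0.0083 for Clk3, -0.052 to 0.18 for Clk4, -0.16 to 0.27 for Srpk1, -0.26 to 0.21 for Srpk2, -0.41 to 0.062 for Prpf4b and -0.029 to 0.19 for Eif4a3. The Srsf5 and Hnrnpl probes here are the one in the skipped stretch and the dimmer one with a RefSeq accession.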
